A study of Mus musculus with 6 samples.

Results

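The 10 genes described here encode parts of the circadian clock: Per1, Per2, Per3, Arntl, Clock, Nr1d1, Nr1d2, Dbp, Cry1 and Ciart. They were picked by gene symbol from the 32285 genes of the count tables, and all 10 were found. In the small intestinal epithelium of mice labelled IE-HuR-/-, RNAs of Dbp, Per2, Per3, Per1 and Ciart fell to between 0.301 and 0.476 of the mean level in littermates, those of Cry1 and Arntl rose, and those of Nr1d1 and Clock moved least. In T cells of the same libraries, none of the 9 members that could be tested passed the test. Of all RNAs tested, 4.82% passed there, against 52.4% in epithelial cells. T sums held far fewer UMIs than epithelial sums. Tested directly, the label effect differed between T and epithelial cells for Dbp, Per1, Per3, Cry1, Nr1d1 and Clock, where 17.3% of all RNAs did. The calls of Cry1, Nr1d1 and Clock were lost when control replicate 1 was left out. For Arntl, Nr1d2, Per2 and Ciart no difference was called. Nr1d1 came closest in T cells (adjusted p = 0.052, quasi-likelihood test of edgeR), and it passed under some other settings given below. It did not pass once the epithelial RNA estimated in T barcodes was subtracted.

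The circadian clock is a feedback loop of transcription that runs in almost every cell. The proteins of Arntl (BMAL1) and Clock bind E-box sequences together and switch on Per, Cry, Nr1d1, Nr1d2, Dbp and Ciart, and the PER and CRY proteins then hold them back. Nr1d1 and Nr1d2 encode REV-ERB nuclear receptors that repress Arntl, Clock, Npas2, Cry1 and Nfil3, and DBP acts on D-box sequences, where NFIL3 opposes it. In consequence, Arntl peaks on the other side of the day from Nr1d1, Dbp and the Per genes, and Cry1 peaks late. The intestine has such a clock, which is set by light through the brain and by the time of feeding.

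The promoter windows of the members show these sequence elements unequally. RefSeq windows (build GRCm38.p6, from 250 bases before to 50 after a gene's start) were at hand for 9 of the 10 members, as 13 windows, Per2 not being among them. They were searched on both strands for the E-box CACGTG, the D-boxes TTATGTAA and TTACGTAA, and the REV-ERB and ROR elements TAGGTCA and TGGGTCA, none of which overlapped another. An E-box stood in windows of 3 members (Ciart, Cry1 and Per1), against 7.15% of all 32851 windows. A D-box stood in the window of Per3 alone among the members, against 1.06% of all windows. The REV-ERB or ROR element stood in a window of Arntl alone, against 6.45% of all windows. The other 4 members, Clock, Dbp, Nr1d1 and Nr1d2, held none of these letters in these windows. The following 4 windows are shown because they carry the elements named above in genes that moved in opposite directions, with the elements in capitals: Ciart at chr3:95882179-95882478 (minus strand), with E-boxes 116, 58 and 44 bases before the start; Per3 at chr4:151044616-151044915 (minus strand), with D-boxes 205 and 158 bases before it; Cry1 at chr10:85185005-85185304 (minus strand), with an E-box 60 bases before it; and Arntl at chr7:113207261-113207560 (plus strand), with its element at base 31 of the transcribed part.
Ciart: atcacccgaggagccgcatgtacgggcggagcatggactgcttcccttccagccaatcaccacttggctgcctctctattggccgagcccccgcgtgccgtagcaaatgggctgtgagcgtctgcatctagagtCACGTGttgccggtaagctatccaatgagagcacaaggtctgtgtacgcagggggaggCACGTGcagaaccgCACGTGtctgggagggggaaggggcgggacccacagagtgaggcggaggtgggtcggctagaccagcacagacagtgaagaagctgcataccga
Per3: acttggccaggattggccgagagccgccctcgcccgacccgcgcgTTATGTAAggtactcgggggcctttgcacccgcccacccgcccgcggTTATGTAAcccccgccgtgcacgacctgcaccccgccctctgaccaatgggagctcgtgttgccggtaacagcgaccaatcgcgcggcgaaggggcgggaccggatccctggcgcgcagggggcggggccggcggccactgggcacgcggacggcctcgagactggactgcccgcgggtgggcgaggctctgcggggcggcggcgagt
Cry1: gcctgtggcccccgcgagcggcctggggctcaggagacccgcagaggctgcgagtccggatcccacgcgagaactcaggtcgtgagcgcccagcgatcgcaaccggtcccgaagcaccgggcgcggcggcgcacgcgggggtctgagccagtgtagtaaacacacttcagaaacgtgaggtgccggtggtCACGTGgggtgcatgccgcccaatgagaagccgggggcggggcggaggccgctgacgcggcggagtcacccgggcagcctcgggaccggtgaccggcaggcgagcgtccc
Arntl: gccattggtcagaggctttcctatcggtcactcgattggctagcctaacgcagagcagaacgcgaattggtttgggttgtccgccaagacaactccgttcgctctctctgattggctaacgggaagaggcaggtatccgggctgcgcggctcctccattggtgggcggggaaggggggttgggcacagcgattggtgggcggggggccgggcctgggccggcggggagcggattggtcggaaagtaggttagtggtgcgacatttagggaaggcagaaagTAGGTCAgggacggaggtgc

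The libraries were made from dissociated small intestinal mucosa of 3 control littermates, whose Elavl1 alleles were floxed and which carried no Cre, and of 3 mice labelled IE-HuR-/-, in which the floxed alleles were combined with villin-Cre. Villin-Cre is active in the intestinal epithelium, and not in T cells. All were young adult mice of the C57BL/6 background, matched for age and sex by the authors, and each gave 1 droplet library. The methods say that animals were fasted for a day with free water, while the sample labels give normal feeding, so that the feeding state is uncertain. The time of day at which they were killed is not given in the sources used here, so that the hour of collection and the label cannot be told apart. The libraries held between 8613 and 15041 barcodes and between 59518012 and 91818560 UMIs, and pairs of libraries shared 22 to 44 barcodes. Epithelial and T cells were gated by marker genes, giving 43144 epithelial and 6311 T barcodes, whose UMIs were summed per library. Epithelial sums held 49380238 to 76448406 UMIs and T sums 3801510 to 6322978. Levels are given as CPM, the UMIs of a gene per 1000000 UMIs of the sum. In the epithelial sums, Elavl1 stood at 29.4, 32.0 and 29.9 CPM in the control libraries and at 31.2, 30.6 and 31.9 CPM in the IE-HuR-/- libraries. The deleted stretch is not given in the sources used here and UMIs were counted over the whole gene, so that this level checks no label, and the libraries are named after their labels throughout.

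Dbp, which encodes a transcription factor of the clock's output, fell in epithelial cells. It stood at 49.3, 50.8 and 52.1 CPM in control libraries and at 14.2, 15.6 and 16.0 CPM in the libraries labelled IE-HuR-/-. The 2 groups lay far apart, and the log2 fold change was -1.59 (SE 0.048, 95% interval -1.70 to -1.49, adjusted p = 4.4e-13 by the quasi-likelihood test of edgeR). Of the 13816 RNAs tested, 1.1% had a fold change as low or lower. Dbp (ENSMUSG00000059824) lies on chromosome 7 from 45705088 to 45710203 (GRCm38, plus strand).

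The Per genes encode the repressors that close the loop, and all 3 fell. Per2 stood at 11.9, 13.1 and 12.5 CPM in control libraries and at 3.73, 3.52 and 4.33 CPM in IE-HuR-/- libraries, a log2 fold change of -1.56 (SE 0.081, adjusted p = 2.5e-10). Per3 stood at 11.98, 11.5 and 10.9 CPM against 4.52, 4.66 and 4.97 CPM (-1.14, SE 0.070, adjusted p = 1.6e-09). Per1, which also responds quickly to hormones and stress, stood at 6.97, 7.33 and 7.71 CPM against 3.77, 3.13 and 3.12 CPM (-0.998, SE 0.091, adjusted p = 1.9e-07). No IE-HuR-/- library reached the lowest control library in any of the 3 genes. Ciart, a further repressor of the loop, was near the limit of counting, with 207 UMIs in the control libraries together and 77 in the others. Its levels of 1.03, 1.15 and 0.91 CPM in controls and 0.63, 0.39 and 0.46 CPM in IE-HuR-/- libraries did not overlap, and it fell by 0.95 on the log2 scale (adjusted p = 0.0028).

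The 2 REV-ERB genes fell far less. Nr1d2 stood at 51.7, 50.4 and 48.3 CPM in control libraries and at 36.4, 35.2 and 38.2 CPM in IE-HuR-/- libraries, a log2 fold change of -0.32 (SE 0.043, adjusted p = 1.3e-05). Nr1d1 stood at 126, 124 and 124 CPM against 106, 103 and 108 CPM, a log2 fold change of -0.10 (SE 0.037, adjusted p = 0.034). The groups of Nr1d1 did not overlap, but its value rested on the scaling, being -0.24 without TMM, edgeR's scaling of library sizes (adjusted p = 4.4e-05). Its call was lost with DESeq2 (adjusted p = 0.11) and when replicate 1 or 2 of either label was left out (adjusted p from 0.064 to 0.17).

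The remaining members rose or stayed close to their level. Cry1, which encodes the late repressor of the loop, stood at 14.1, 13.03 and 13.5 CPM in control libraries and at 20.2, 22.1 and 22.2 CPM in IE-HuR-/- libraries, a log2 fold change of 0.81 (SE 0.052, adjusted p = 3e-09). Arntl stood at 9.21, 9.82 and 9.63 CPM against 11.7, 13.5 and 11.9 CPM (0.51, SE 0.066, adjusted p = 8e-06). Both were higher in every IE-HuR-/- library than in any control. Clock, the partner of Arntl, whose RNA cycles weakly in most tissues, stood at 56.4, 52.4 and 53.6 CPM against 50.7, 53.2 and 53.9 CPM. The groups of Clock overlapped; its log2 fold change of 0.10 (adjusted p = 0.043) turned to -0.04 without TMM scaling of library sizes. Its call was lost then, and also without the low-count filter, with stricter barcodes, with thinning, with the replicate block and when any of 4 libraries (control replicates 2 and 3, IE-HuR-/- replicates 2 and 3) was left out (adjusted p from 0.056 to 0.41).

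**Figure D1:**
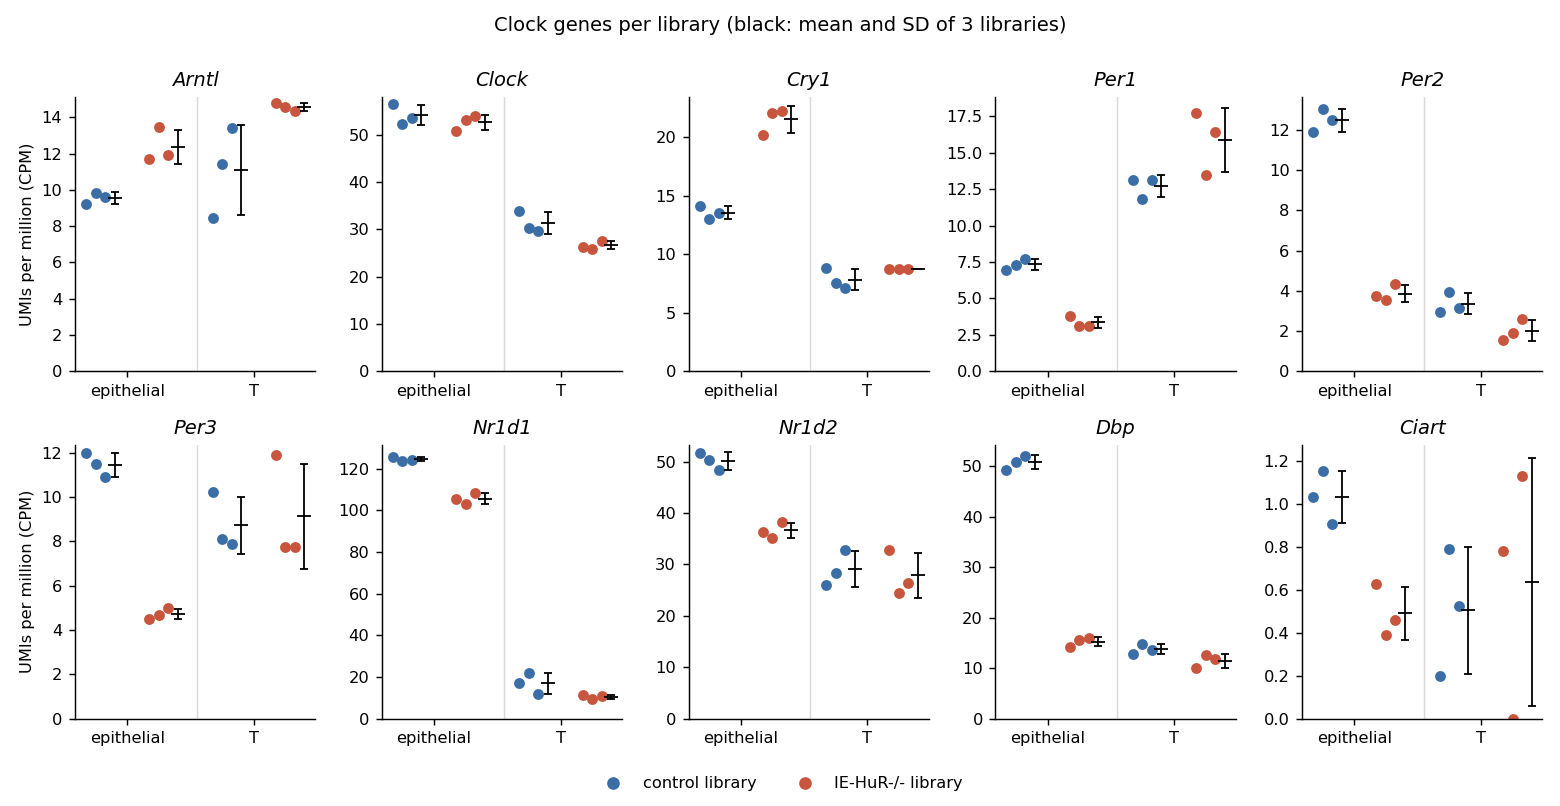
Level of each of the 10 clock genes in every library, in CPM of the epithelial sums (left of each panel) and T cell sums (right). Points are single libraries and black marks the mean and SD of 3. The points of Dbp, Per1, Per2 and Per3 in epithelial cells stand far apart between labels, while those of Clock overlap.

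Read against all RNAs, a call alone says little here. All 10 members were called in epithelial cells, 3 higher and 7 lower, where 52.4% of all 13816 RNAs tested were called, 24.2% higher and 28.2% lower. Levels did not overlap between labels for 9 of the 10 members, and for 62.7% of the RNAs tested. The median log2 fold change was -0.63 over the members and -0.03 over all RNAs tested. Scaling mattered for the split: 3350 RNAs were called higher and 3895 lower with TMM scaling, and 1929 and 5891 without it, when the median over all RNAs was -0.16. Dbp, Per1, Per2, Per3, Ciart, Cry1 and Arntl kept their direction and call in epithelial cells in all alternatives that gave them a test.

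Some of these counts may hold reads of a neighbour, since whether strand was used in counting is not stated. Nr1d1 overlaps the opposite-strand gene Thra by 1075 bases and Dbp overlaps Sphk2 by 737 bases. All 3749 bases of Ciart overlap C920021L13Rik on the opposite strand, Arntl overlaps Gm45355 there by 2394 bases, and the 41014 bases of Per3 lie inside Camta1 on the same strand. In epithelial sums, Sphk2 stood at 57.6 to 62.8 CPM in control libraries and 43.7 to 46.0 CPM in IE-HuR-/- libraries, and Thra at 82.1 to 85.2 CPM against 65.3 to 68.9 CPM. Camta1, which strand cannot tell apart from Per3, stood at 5.64 to 6.23 CPM against 3.64 to 4.25 CPM. The part of shared reads in the members' levels was not tested.

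The members were then read within epithelial classes. In enterocytes, the absorptive cells, 9 of 10 members were called, where 60.2% of 12487 RNAs were called, and Nr1d1 alone was not (log2 fold change -0.02, 95% interval -0.10 to 0.07). In CPM, Nr1d1 was lower without overlap, at 135, 131 and 136 in control libraries against 117, 111 and 119. Clock was called higher (0.18), but its CPM overlapped, at 56.2, 53.1 and 53.3 against 51.1, 54.4 and 55.5. The fitted values include TMM scaling, which CPM do not. Dbp stood at 54.8, 55.1 and 58.5 CPM in control enterocytes and at 16.1, 17.5 and 18.3 CPM in IE-HuR-/- enterocytes. In goblet cells, which secrete mucus, 6 of 9 members tested were called, where 27.3% of 9021 RNAs were called. Dbp stood there at 24.9, 33.4 and 30.4 CPM in control libraries and at 3.77, 6.30 and 3.45 CPM in the others, so that its log2 fold change was -2.55 (SE 0.21, adjusted p = 3.4e-09). Arntl (0.65) and Cry1 (0.93) rose in goblet cells, and Per2 (-1.67), Per3 (-1.05) and Nr1d2 (-0.60) fell. Per1 (-0.55, adjusted p = 0.10), Nr1d1 (-0.25, adjusted p = 0.081) and Clock (-0.12, adjusted p = 0.47) did not pass the test there. Epithelial barcodes under 2000 UMIs, taken alone, had 7 of 9 members called, where 30.8% of 8757 RNAs were called.

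The fall of Dbp was larger in goblet cells than in enterocytes. The difference of the 2 label effects was -0.998 on the log2 scale (SE 0.23, 95% interval -1.47 to -0.52, adjusted p = 0.010). Enterocyte markers made up 4.37% to 4.63% of goblet sums in control libraries and 2.95% to 3.896% in IE-HuR-/- libraries, against 7.94% to 8.41% and 8.31% to 8.69% of enterocyte sums, and their part in this difference was not tested. Dbp was the only member with such a difference, where 4.54% of 12155 RNAs were called. The call was lost without IE-HuR-/- replicate 1 (adjusted p = 0.058) or replicate 3 (adjusted p = 0.086), while the value stayed between -1.28 and -0.82 when any library was left out.

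Enteroendocrine cells, the hormone-secreting cells of the epithelium, were few, with 30 to 62 barcodes a library. None of the 8 members tested was called there, where 0.338% of 8275 RNAs (28) were called. Dbp stood at 10.1, 27.3 and 13.1 CPM in control libraries and at 14.0, 11.3 and 18.9 CPM in IE-HuR-/- libraries, and the groups overlapped. Nr1d1 stood at 64.4, 70.1 and 64.1 CPM against 26.3, 65.9 and 92.2 CPM. The depth was low, with 54 UMIs of Dbp in control libraries together and 35 in the others, and the 95% interval of the log2 fold change of Dbp ran from -1.06 to 0.75. That interval lies above the value in enterocytes (-1.50). The difference of the label effects on Dbp between enteroendocrine cells and enterocytes was 1.38 (SE 0.39, 95% interval 0.57 to 2.18), which did not pass the adjustment over all RNAs (adjusted p = 0.099), and no member did, where 1.08% of 13549 RNAs were called. It passed without control replicate 2 (1.90, adjusted p = 0.0072), without IE-HuR-/- replicate 1 (1.39, adjusted p = 0.032) and without TMM scaling (1.51, adjusted p = 0.032). Per1 (1.11, adjusted p = 0.25) and Per2 (1.19, adjusted p = 0.27) gave differences of the same sign. Enterocyte markers made up 3.04%, 3.30% and 3.79% of enteroendocrine sums in control libraries and 1.44% in IE-HuR-/- replicate 1. The other IE-HuR-/- libraries are not given here, so these values do not compare the labels. The part of enterocyte RNA in the differences of label effects was not tested. Tuft cells (13 to 33 barcodes a library) and cycling epithelial cells (13 to 33 barcodes) were too few for a fit. In tuft cells, 31 UMIs of Dbp were counted in control libraries (25.4 CPM of the pooled sums) and 12 in IE-HuR-/- libraries (11.03 CPM). In cycling cells, 7 and 2 UMIs of Dbp were counted.

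Level differed between cell classes in the controls as well. Among the epithelial classes and T cells named here, Dbp was highest in enterocytes (56.1 ± 2.0 CPM, SD, n = 3) and lower in goblet cells (29.6 ± 4.3). Fibroblasts, given at the end, were higher. Dbp was at 27.5 ± 13.4 CPM in tuft cells, 16.8 ± 9.2 in enteroendocrine cells, 13.7 ± 1.0 in T cells and 6.94 ± 10.8 in cycling cells. The T value includes epithelial RNA, estimated below. From goblet cells on, neighbours in this order differed by less than the larger of their SDs. Arntl had the opposite order in part, with 19.4 ± 3.1 CPM in cycling cells, 15.1 ± 3.8 in tuft cells, 11.1 ± 2.5 in T cells, 10.9 ± 0.69 in goblet cells, 10.4 ± 6.2 in enteroendocrine cells and 9.37 ± 0.40 in enterocytes. The steps from cycling to tuft cells and from tuft to T cells were slightly larger than the SD of either class, and the later neighbours in this order differed by less than the larger SD.

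**Figure D2:**
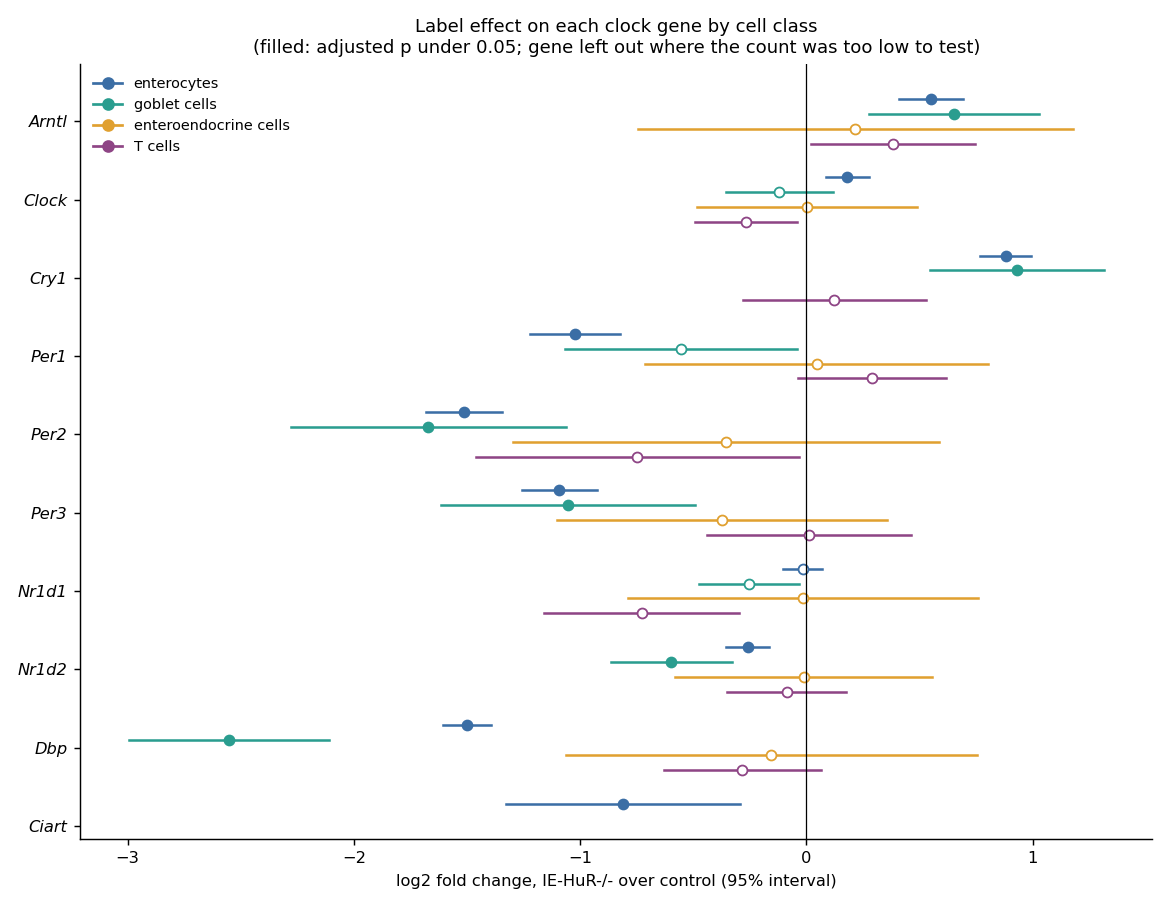
Fitted log2 fold change of IE-HuR-/- over control for each clock gene (rows) in enterocytes, goblet cells, enteroendocrine cells and T cells, with 95% intervals. Filled points passed an adjusted p of 0.05. Dbp lies at -1.50 in enterocytes and -2.55 in goblet cells, and near 0 with a wide interval in enteroendocrine cells.

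T cells came from the same animals, and villin-Cre is not active in them. None of the 9 members tested was called, where 4.82% of 11341 RNAs (547) passed; before adjustment, p was under 0.05 for 2058. DESeq2 called none of the members either. Levels did not overlap between labels for 6 of the 10 members, 2 higher and 4 lower, against 22.4% of all RNAs tested. Ciart, with 7 and 11 UMIs, was too low to test.

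Nr1d1 came closest to a call in T cells. It stood at 17.1, 21.7 and 11.8 CPM in control libraries and at 11.3, 9.49 and 10.97 CPM in IE-HuR-/- libraries, a log2 fold change of -0.73 (SE 0.20, adjusted p = 0.052). It was called without TMM scaling (adjusted p = 0.039), without the filter on low counts (0.0012), with stricter barcodes (0.038) and without control replicate 3 (3.8e-04). Control replicate 3 is the control library with the smallest share of epithelial RNA in T sums, as given below. In T barcodes with the gamma-delta chain Trdc alone, the log2 fold change of Nr1d1 was -1.12 (adjusted p = 0.024), the only one of 8 members called, where 1.61% of 10653 RNAs were called. Trdc sums held enterocyte markers as well, and epithelial RNA was not subtracted from them. Arntl stood at 8.44, 11.4 and 13.4 CPM against 14.8, 14.6 and 14.4 CPM, with no overlap and no call (0.38, adjusted p = 0.25). Dbp stood at 12.8, 14.8 and 13.7 CPM against 9.93, 12.7 and 11.8 CPM (-0.28, 95% interval -0.63 to 0.06, adjusted p = 0.40). Per1 was higher in each IE-HuR-/- library, at 13.2, 11.8 and 13.2 CPM against 17.7, 13.4 and 16.5 CPM (0.29, adjusted p = 0.35), and Per2 was lower, with 47 and 36 UMIs in all (-0.75, adjusted p = 0.25). Per3 (0.01) and Cry1 (0.12) overlapped between labels.

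T barcodes also carried epithelial RNA, and the share moved with the libraries. Judged by enterocyte markers, it made up 9.65%, 12.98% and 5.90% of the T sums in control libraries and 7.49%, 6.49% and 7.21% in IE-HuR-/- libraries. At the epithelial levels given above, that RNA would give 12.1, 16.0 and 7.33 CPM of Nr1d1 in control T sums and 7.91, 6.68 and 7.81 CPM in the others, which is 69.0% and 70.6% of what was counted on average. For Dbp it would give 4.76, 6.60 and 3.07 CPM in control T sums and 1.07, 1.01 and 1.15 CPM in the others, 34.8% and 9.5% of the counts. For Arntl it would give 8.64% and 5.97%. After its subtraction, the log2 fold change of Dbp in T cells was 0.17 (adjusted p = 0.68), that of Nr1d1 was -0.77 (adjusted p = 0.15), and levels did not overlap for 3 of the 10 members, Arntl and Per1 being higher and Nr1d1 lower, against 21.0% of all RNAs tested. Less Nr1d1 was left to measure by then, at 5.03 CPM in control libraries and 3.12 CPM in the others on average.

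**Figure D3:**
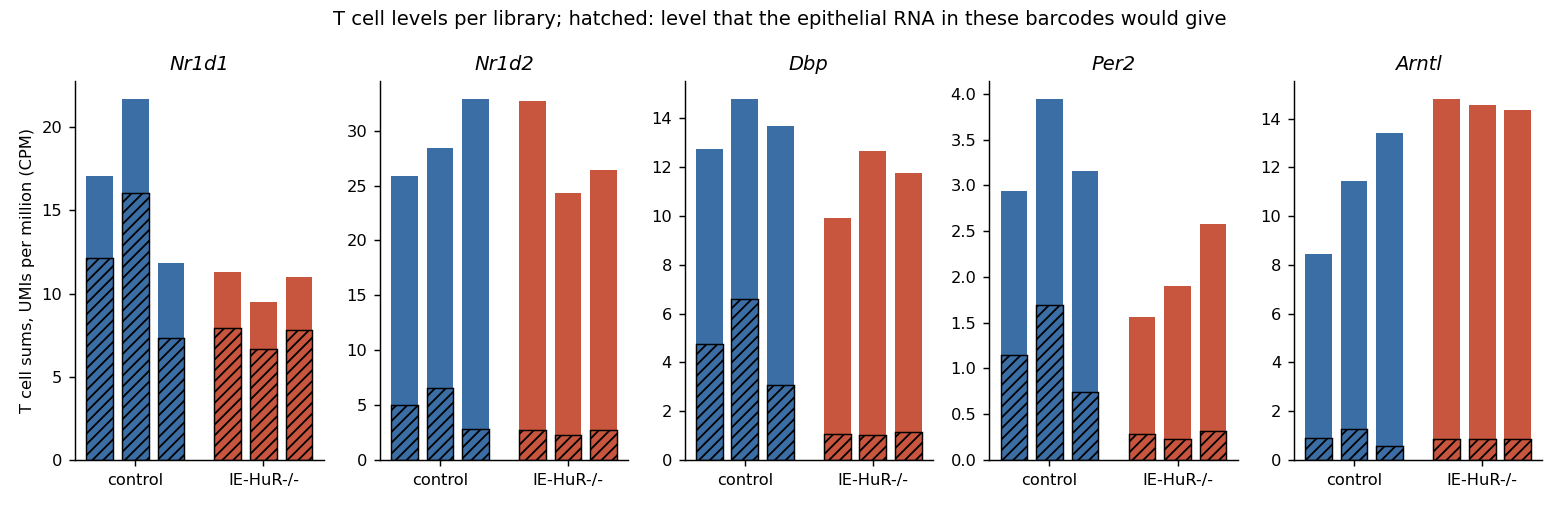
Level of 5 members in the T cell sums of each library, in CPM, with the part that the epithelial RNA in these barcodes would give shown hatched. About 69.0% of Nr1d1 in control libraries lies in the hatched part, against 8.64% of Arntl.

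The makeup of the T class differed as well. Barcodes with Trdc made up 64.4% to 68.9% of T barcodes in control libraries and 50.4% to 53.9% in IE-HuR-/- libraries, and those with Cd8b1 made up 2.45% to 3.04% against 10.5% to 11.6%. The part of this makeup in the T values was tested only by the Trdc barcodes given above.

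Whether the label effect differed between T and epithelial cells was tested with the library as a block. For 6 of the 10 members it did, where 17.3% of 14810 RNAs were called. The effect was more positive in T cells for Dbp (1.23, 95% interval 0.92 to 1.54, adjusted p = 6.2e-05), Per1 (1.21, 0.86 to 1.55, adjusted p = 1.8e-04) and Per3 (1.07, 0.61 to 1.53, adjusted p = 0.0041), and these 3 kept their call in each alternative run. It was more negative in T cells for Cry1 (-0.77, adjusted p = 0.0076), Nr1d1 (-0.71, adjusted p = 0.029) and Clock (-0.44, adjusted p = 0.0073), and without control replicate 1 these 3 calls were lost. The call of Clock was also lost without TMM scaling (-0.20), and that of Nr1d1 without TMM scaling (-0.46), with the stricter gate (-0.67), with epithelial RNA subtracted (-0.68) and when any library but control replicate 3 was left out. For Arntl, whose effect had the same sign in both classes, the difference was -0.20 (95% interval -0.56 to 0.15) and it was 0.04 without TMM scaling. For Per2 it was 0.73 (0.08 to 1.37, adjusted p = 0.12), and with epithelial RNA subtracted it was 1.28 (adjusted p = 0.026). Over all RNAs, 926 were more positive and 1642 more negative in T cells with TMM scaling, and 2441 and 447 without it, and the median over all RNAs was -0.10 with and 0.15 without scaling.

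Ratios of 2 RNAs within a library do not depend on how the library was scaled. Arntl over Dbp, on the log2 scale, stood at -2.42, -2.37 and -2.43 in epithelial cells of control libraries and at -0.28, -0.21 and -0.42 in IE-HuR-/- libraries. Cry1 over Per2 rose from a mean of 0.12 ± 0.12 (SD, n = 3) to 2.48 ± 0.15, Arntl over Per3 from -0.26 ± 0.11 to 1.39 ± 0.14, and Arntl over Nr1d1 from -3.70 ± 0.06 to -3.10 ± 0.14. All 4 ratios were higher in every IE-HuR-/- library than in any control in epithelial cells, enterocytes and goblet cells, with a difference of 3.23 for Arntl over Dbp in goblet cells. That separation follows from the levels and is no further result. In these classes Arntl and Cry1 were higher, and Dbp, Per2, Per3 and Nr1d1 lower, without overlap. In enteroendocrine cells all 4 overlapped between labels, with differences from 0.32 to 0.87 and SDs up to 1.03.

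In T cells 3 of the 4 ratios moved less than in epithelial cells, and Arntl over Nr1d1 moved more. Arntl over Dbp stood at -0.60, -0.37 and -0.03 in control libraries and at 0.58, 0.20 and 0.29 in the others, a difference of 0.69 against 2.10 in epithelial cells. Cry1 over Per2 differed by 0.92 and Arntl over Nr1d1 by 1.05, both without overlap, and Arntl over Per3 differed by 0.38 with overlap. With epithelial RNA subtracted, Arntl over Dbp differed by 0.23 and Cry1 over Per2 by 0.41, both with overlap, and Arntl over Nr1d1 by 1.14 without. In Trdc barcodes alone, Arntl over Nr1d1 differed by 1.33 without overlap and the other 3 overlapped. Of the 4 ratios, that of Arntl over Nr1d1 differed more in T cells (1.05) than in epithelial cells (0.61), and the other 3 differed less.

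**Figure D4:**
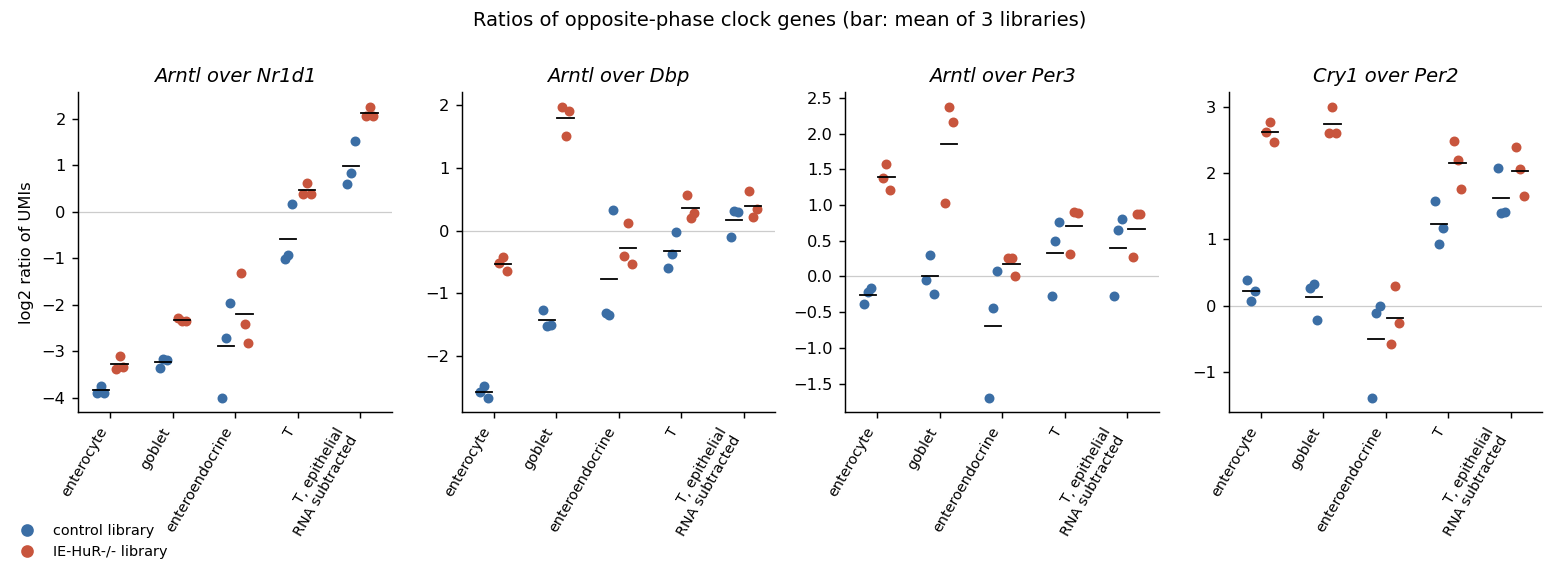
Log2 ratio of UMIs of clock genes that peak at different times, in each library (points, bar for the mean of 3), for enterocytes, goblet cells, enteroendocrine cells, T cells and T cells with epithelial RNA subtracted. The Arntl ratios pair genes of opposite phase, while Cry1 peaks late rather than opposite to Per2. The labels separate in all 4 ratios in enterocytes and goblet cells and overlap in enteroendocrine cells.

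The wider clock was read from 32 further genes, 29 of which could be tested in epithelial cells. Of these, 7 rose, 12 fell and 10 did not pass the test, with a median log2 fold change of -0.04, where 24.2% of all RNAs were called higher and 28.2% lower. Among the proteins that bind D-boxes, Hlf fell from 7.40, 7.31 and 6.98 CPM to 1.09, 1.05 and 1.33 CPM (-2.50, adjusted p = 2.4e-11) and Tef fell by 0.69 on the log2 scale. Only 0.275% of the RNAs tested had a fold change as low as that of Hlf. Nfil3, which competes with them, rose from 0.88, 0.94 and 1.49 CPM to 2.90, 2.54 and 2.83 CPM (1.48, adjusted p = 3.7e-06). Npas2, which can take the place of Clock beside Arntl, rose from 23.0, 23.7 and 21.1 CPM to 28.7, 29.1 and 27.7 CPM (0.47, adjusted p = 1.3e-06).

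The repressors Cry2 (-0.22) and Bhlhe40 (-0.93) fell, the latter from 87.8 ± 0.95 to 41.9 ± 0.48 CPM, and so did Cipc, an inhibitor of Clock (-0.80). Rora, which encodes a nuclear receptor that activates Arntl, was near 0.5 CPM in both labels and not called. Of 7 kinases and turnover factors, Csnk1d, which phosphorylates the PER proteins, rose (0.38), 3 fell (Fbxl21, Btrc and Gsk3b) and 3 did not pass. Of 8 output genes, Noct, which encodes the phosphatase nocturnin, rose (0.76), Usp2, a ubiquitin protease, fell (-0.53), Herpud1 fell (-0.36) and 4 did not pass. Hspa5 was called higher (0.09) with TMM scaling, while its CPM overlapped between labels, with a mean of 221.6 in control and 214.7 in IE-HuR-/- libraries. The remaining calls were Timeless (0.53) and Wdr5 (0.35) higher, and Nono (-0.20) lower. In goblet cells, where 22 of the 32 could be tested, Tef (-1.07), Usp2 (-0.90) and Bhlhe40 (-0.72) fell and Nfil3 (1.92) rose, among 3 that fell and 8 that rose, where 27.3% of all RNAs were called.

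In T cells, 2 of 28 further clock genes were called, where 4.82% of all RNAs were. Rora rose from 21.8, 17.9 and 27.6 CPM to 43.0, 37.2 and 44.2 CPM (0.88, adjusted p = 3.1e-04), and in Trdc barcodes alone it did not pass (0.51, adjusted p = 0.11). Usp2 fell from 7.85, 8.09 and 7.10 CPM to 2.73, 4.43 and 4.68 CPM (-0.97, adjusted p = 0.030), and epithelial RNA would give 81.9% of its level in control T sums and 80.3% in the others on average. Hlf stood at 2.67 ± 0.88 CPM in control T sums and 3.79 ± 0.37 CPM in the others (0.52, adjusted p = 0.42). Within T barcodes with Trdc, Hlf stood at 1.18 ± 0.80 CPM against 0.63 ± 0.09 CPM, and within those with Cd4 at 67.9 ± 42.3 CPM against 24.7 ± 8.7 CPM (SD, n = 3), control libraries first. These values overlapped between labels and rested on 11 and 6 UMIs with Trdc and on 8 and 16 UMIs with Cd4. Barcodes with Cd4 made up 0.70% to 1.32% of T barcodes in control libraries and 4.30% to 5.33% in the others, and the part of this makeup in the difference was not tested. The label effects in T and epithelial cells differed for Hlf by 2.95, for Nfil3 by -1.60, for Cipc by 0.98, for Bhlhe40 by 0.95 and for Tef by 0.74.

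**Figure D5:**
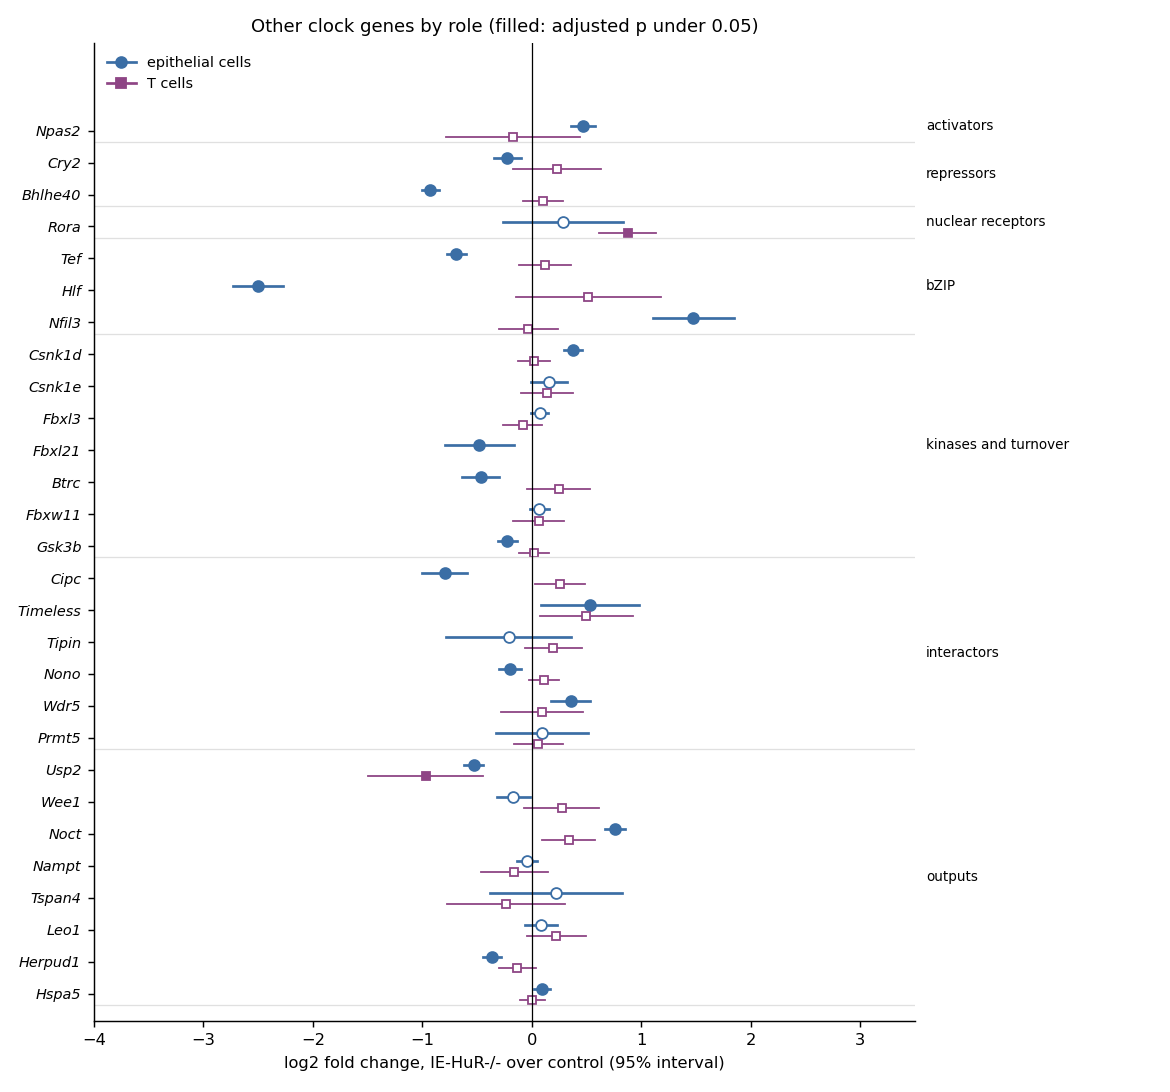
Fitted log2 fold change of IE-HuR-/- over control for 28 further clock genes, grouped by role, in epithelial cells (circles) and T cells (squares), with 95% intervals. Filled symbols passed an adjusted p of 0.05. In epithelial cells Hlf lies at -2.50 and Nfil3 at 1.48, and in T cells Rora and Usp2 alone are filled.

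Per1 is also known to respond to stress and to glucocorticoids, and genes of both responses moved in the same libraries. All 10 immediate-early and heat shock genes on the list, such as Egr1 (1.44) and Hspa1b (1.12), rose in epithelial cells. Their median log2 fold change was 0.66, where 24.2% of all RNAs were called higher and 28.2% lower. In epithelial barcodes under 2000 UMIs, 6 of them were called higher, and Hspa1b (-0.07) was not called. In T cells, where 4.82% of all RNAs were called, Fos (-0.30) and Jun (-0.39) fell and the other 8 did not pass. Of 5 glucocorticoid-responsive genes tested in epithelial cells, Sgk1 (-1.19), Tsc22d3 (-0.80) and Klf9 (-0.24) fell, Ddit4 rose (1.21) and Fkbp5 did not pass. In T cells, Sgk1 (-1.16) and Fkbp5 (-0.24) fell and the other 4 of 6 did not pass. Epithelial RNA would give 71.8% of Sgk1 in control T sums and 47.3% in the others on average; the remaining levels of 4.476 and 4.001 CPM overlapped between labels. For Fkbp5 it would give 0.310% and 0.211%. Their part in the clock values was not tested.

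The RNAs most like a member were sought over the 12 epithelial and T sums, each centred on its class mean, among 3527 RNAs with at least 20 CPM on average in both classes. Those most like Dbp were Sptssa, Pfn1, Acat1, Lamtor2 and Rnf167 (Pearson's r from 0.981 to 0.990). Pfn1, which encodes the actin-binding protein profilin, stood at 1146 CPM in control and 658 CPM in IE-HuR-/- epithelial cells on average, and at 1572 and 1514 CPM in T cells. Those most like Arntl were Prelid3b, Vps53, Arhgdia, Ubald2 and Selenot (r from 0.911 to 0.936). None of these 10 was on the list of clock genes, and the points share libraries and the contrast between labels.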

How the data were processed

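Single-cell suspensions of small intestinal mucosa from 3 control littermates and 3 mice labelled IE-HuR-/- gave 1 droplet library per animal. As deposited by the authors, the tables hold unnormalized counts of UMIs for each gene in each barcode, made with Cell Ranger (6.1.2 in the file headers) and, in the submitters' notes, build mm10. Whether intronic or antisense reads were counted is not given in the sources used here, the methods and labels name different kits, and Seurat, also named in the notes, left no file used here. The 10 genes and all lists were chosen with earlier results of these data known.

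Barcodes with at least 200 genes were gated by marker genes. Epithelial barcodes had at least 3 epithelial markers making up at least 0.5% of UMIs and few markers of other classes. T barcodes had at least 3 T markers making up at least 0.4% of UMIs, a T cell receptor or CD3 gene, and less than 0.5% of epithelial markers. Enterocytes had at least 2000 UMIs and 3% of enterocyte markers, goblet cells 5% of goblet markers, and enteroendocrine cells 1% of theirs. Epithelial classes were named from their markers alone; no doublet caller was run, and doublets were limited only by the gates. UMIs were summed per library and class, and tested with the quasi-likelihood test of edgeR 4.0.16 in R 4.3.3 (TMM scaling, genes with a count of at least 10 in enough libraries and 15 in all, robust fit), with p-values adjusted over all RNAs tested by the Benjamini-Hochberg method and called at 0.05. Libraries are the replicates, so p-values measure the spread between 3 animals a label. Differences of label effects between classes were tested in 1 fit with library as a block. The share of epithelial RNA in T sums was the level of enterocyte markers there over that in epithelial sums. It takes all such UMIs in T sums as epithelial, and was subtracted gene by gene. The models were also run on simulated counts in which few RNAs changed. In epithelial cells 52.4% of RNAs were called, so that run could not check the scaling.

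Named genes were all 10 members, and other clock genes that were called in epithelial or T cells or whose role has few measured genes. Stress and glucocorticoid genes are given by counts and examples, and the 5 RNAs most like Arntl and Dbp by Pearson's r of log2(CPM + 1). Alternatives were DESeq2 1.42.0, no TMM scaling, no count filter, stricter barcodes (500 genes, at most 25% mitochondrial UMIs), a stricter gate, thinning to the lowest total, a replicate block, each library left out and epithelial RNA subtracted. The stricter gate asked for 5 marker UMIs and removed little. In control replicate 3 it kept 693 of 694 T barcodes and 54799298 of 55122351 epithelial UMIs. Values under it are thus close to a repeat of the main fit. Added after seeing the data were epithelial barcodes under 2000 UMIs, Trdc barcodes, the comparisons of goblet and enteroendocrine cells with enterocytes, and ratios with epithelial RNA subtracted. The values of 1 further clock gene are not reported here, though it is in the counts over the list.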

Additional observations from a re-analysis of the deposited data

Results flagged for a closer look

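The label effect differed between T cells and epithelial cells by a test of the difference itself, with the library as a block, for 6 clock genes. Over all RNAs tested, 17.3% differed. On the log2 scale the difference, T minus epithelial, was 1.23 for Dbp, 1.21 for Per1 and 1.07 for Per3, which fell in epithelial cells, and it was -0.77 for Cry1, -0.71 for Nr1d1 and -0.44 for Clock. T sums hold epithelial RNA and a T cell makeup that differ between libraries, with the values given above. With that RNA subtracted, Nr1d1 lost its call, Per2 gained one and the other genes named here kept theirs. The calls of Cry1, Nr1d1 and Clock were lost without control replicate 1, and those of Nr1d1 and Clock also without TMM scaling. Those of Dbp, Per1 and Per3 held in each alternative run.

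Dbp also differed between goblet cells and enterocytes, by -0.998 on the log2 scale, with 448 UMIs of Dbp in the goblet cells of control libraries and 46 in those of IE-HuR-/- libraries. Groups of 3 libraries were not tested for outlying samples.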

How the results depend on the processing

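The limits are those of 3 libraries a label, of an hour of collection that is not given, and of small classes. In epithelial cells, 8 to 10 of the 10 clock genes were called under each alternative on all epithelial barcodes, and the losses were of Nr1d1 and Clock. The main fit there called 52.4% of all RNAs. Clock turned to -0.040 without TMM scaling and to -0.053 in barcodes under 2000 UMIs, where 2700 RNAs in all were called. In T cells, RNAs called numbered 361 with DESeq2, 1025 without the filter on low counts, 172 in Trdc barcodes and 240 to 1356 with 1 library left out. The highest was without control replicate 3, and it was 246 without control replicate 1 and 251, 252 and 240 without IE-HuR-/- replicates 1, 2 and 3. The clock genes called there numbered 1 without TMM scaling, 1 without the low-count filter, 1 with stricter barcodes, 1 in Trdc barcodes and 0 to 1 with 1 library left out, Nr1d1 in each case. Uncalled values in T cells changed sign for Per3 (-0.20 to 0.13 with 1 library left out, and -0.04, -0.07 and -0.20 without control replicate 2, control replicate 3 and IE-HuR-/- replicate 1), for Dbp with epithelial RNA subtracted (0.17) and for Cry1 in Trdc barcodes (-0.10). Of the T and epithelial differences, 3 to 6 were called with 1 library left out, 3 without control replicate 1, and that of Arntl turned to 0.041 without TMM scaling. The main fit of these differences called 17.3% of all RNAs. Goblet cells and enterocytes differed in 0 to 2 clock genes with 1 library left out: 0 without IE-HuR-/- replicate 1 or 3 and 2 without replicate 2. The main fit of that comparison called 4.54% of all RNAs. Enteroendocrine cells and enterocytes differed in 1 gene without TMM scaling and in 0 to 1 with 1 library left out, 1 without control replicate 2 or IE-HuR-/- replicate 1. Their main fit called 1.08% of all RNAs. The shares in the alternative fits of these comparisons are not given here. With epithelial RNA subtracted from T cells, Arntl over Dbp moved to 0.23 and Cry1 over Per2 to 0.41. Without TMM scaling, 1892 RNAs rose and 6302 fell in enterocytes (3758 and 3760 with it), and 758 and 2283 in goblet cells (1326 and 1141). Numbers in the labels showed no pairing of libraries: same-number correlations of deviations were 0.07, -0.06 and -0.10 in epithelial and 0.01, -0.08 and -0.19 in T cells. Those of different numbers ran from -0.20 to 0.35 in epithelial and from -0.13 to 0.16 in T cells. With 3 libraries a label, these values cannot exclude a pairing. With the replicate block, 9 clock genes and 7051 RNAs were called in epithelial cells and 0 and 392 in T cells. Among single genes, 366 values kept their direction and call, 8 changed sign, 10 gained a call and 27 lost one. These counts include the stricter gate, which removed little and so tested little. Among counts and ratios, which have no call of their own, 106 stayed near the main value. The rest were 11 higher counts, 10 lower counts and 2 ratios that moved.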

Other observations

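Outside the classes compared above, Dbp was highest in fibroblasts, which were few. They held 148 UMIs of Dbp in control libraries (286 CPM of the pooled sums) and 53 in IE-HuR-/- libraries (284 CPM). Other members differed there in both directions. Nr1d1 had 142 and 29 UMIs (274 and 155 CPM), and Nr1d2 had 70 and 35 (135 and 187 CPM), control libraries first. Erythroid barcodes held 50 and 1 UMIs of Dbp (10.8 and 0.596 CPM). Enterocyte markers made up 0.918%, 1.31% and 0.976% of erythroid sums in control libraries and 0.928% in IE-HuR-/- replicate 1. The other IE-HuR-/- libraries are not given here, so these values do not compare the labels. In epithelial sums of control libraries, enterocyte markers made up 7.09% to 7.35%. The part of epithelial RNA in the erythroid Dbp counts was not tested. These classes were not fitted, and no test was made.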
